A study of Mus musculus with 28 samples.

Results

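The 64 mouse genes described here carry symbols from Zfp900 to Zfp999 and were chosen by symbol alone, out of 54109 identifiers in the table of reprogramming libraries and 54838 in the table of induced pluripotent stem cell (iPSC) libraries. All 64 were listed in both tables. Gene expression was measured by RNA sequencing. The 12 reprogramming libraries came from mouse embryonic fibroblasts treated with doxycycline at 1 µg/ml alone (DOX), with UNC0638 at 1 µM (UNC), with 3C, or with both, 3 libraries in each of 4 groups. 3C stands for 3 compounds: a TGF-b receptor I inhibitor (TGF-b RI Kinase Inhibitor II, used at 250 nM), CHIR99021 (3 µM), which inhibits GSK3, and L-ascorbic acid (50 µg/ml). The 6 iPSC libraries came from cells reprogrammed with DMSO (3) or with UNC during the first 48 hours (3). All cells carried Rosa26-rtTA and heterozygous Oct4-GFP alleles and a doxycycline-inducible OKSM or OKS reprogramming cassette, and were grown on irradiated feeder cells, whose RNA could be in the libraries. Which cassette each library had, when the reprogramming RNA was taken, and whether replicates were separate cultures were not given, so p-values measure the spread between these libraries, which may be technical.

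Most genes with such symbols encode C2H2 zinc finger proteins with a KRAB domain. Their finger arrays bind DNA, often inside retrotransposons, while the KRAB domain recruits TRIM28 (KAP1) and the histone methyltransferase SETDB1, which deposits H3K9me3 and silences the bound element. The genes arose by repeated duplication, lie in clusters of similar copies, and are themselves often covered by H3K9 methylation. UNC0638 inhibits EHMT1 and EHMT2 (GLP and G9a), the main enzymes that dimethylate H3K9, which are distinct from SETDB1. The comparisons asked what this inhibitor did with and without 3C, and whether its early use left a trace in the resulting iPSC.

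Of the 61 genes with a RefSeq position, 37 lay in 4 runs of at least 4 genes whose starts were within 1000000 bases of each other. The run on chromosome 4 held 14 genes (Zfp990, Zfp980, Zfp987, Zfp992, Zfp981, Zfp993, Zfp978, Zfp991, Zfp988, Zfp982, Zfp985, Zfp979, Zfp984 and Zfp933) between bases 145510759 and 147849126 of GRCm38 (mm10). Runs of 10, 9 and 4 genes lay on chromosomes 17, 2 and 7.

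Genes of the chromosome 4 run with related promoter windows differed in how their levels compared between the 2 tables. Of the 64 genes, 54 had a RefSeq promoter sequence. The 250 bases before a transcript start are printed for Zfp984, which had reads in every library, and for 3 of its neighbours that were at no more than 1.79 CPM (reads of the gene per 1000000 reads of the library) in any reprogramming library and far higher in iPSC. They are given 5′ to 3′ on the gene's strand, with each CpG dinucleotide, the site of DNA methylation, in capitals.

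Zfp984: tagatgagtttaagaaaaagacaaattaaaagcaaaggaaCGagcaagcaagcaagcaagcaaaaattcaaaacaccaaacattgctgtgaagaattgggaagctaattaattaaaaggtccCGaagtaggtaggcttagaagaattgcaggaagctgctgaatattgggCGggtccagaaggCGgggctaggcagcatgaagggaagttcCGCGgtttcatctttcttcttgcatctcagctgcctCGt
Zfp981: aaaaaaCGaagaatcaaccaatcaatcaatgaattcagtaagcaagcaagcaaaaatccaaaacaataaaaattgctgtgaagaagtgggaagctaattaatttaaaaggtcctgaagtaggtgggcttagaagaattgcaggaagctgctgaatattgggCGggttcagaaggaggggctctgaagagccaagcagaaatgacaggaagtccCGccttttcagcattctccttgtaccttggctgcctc
Zfp985: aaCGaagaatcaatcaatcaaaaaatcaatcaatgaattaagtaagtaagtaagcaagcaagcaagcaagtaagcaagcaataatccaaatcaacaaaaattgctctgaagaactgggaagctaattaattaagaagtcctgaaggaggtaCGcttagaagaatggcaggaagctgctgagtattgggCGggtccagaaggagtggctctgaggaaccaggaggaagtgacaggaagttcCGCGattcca
Zfp979: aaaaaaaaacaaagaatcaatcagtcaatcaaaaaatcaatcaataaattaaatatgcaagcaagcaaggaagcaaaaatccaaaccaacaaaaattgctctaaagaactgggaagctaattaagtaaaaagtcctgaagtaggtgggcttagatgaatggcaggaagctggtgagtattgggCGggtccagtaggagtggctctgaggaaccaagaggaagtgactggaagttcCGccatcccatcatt

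In GRCm38.p6 these windows are chr4:147809789-147810038 (Zfp984, minus strand), chr4:146514670-146514919 (Zfp981, plus strand), chr4:147553027-147553276 (Zfp985, plus strand) and chr4:147642509-147642758 (Zfp979, minus strand). The start used is the one in the RefSeq promoter table, which need not be the outer end of the gene: it lay 2441 bases inside the gene for Zfp984 and 12920 for Zfp981, and at the gene's end for Zfp985 and Zfp979. Over all 54 genes, 29 of these starts were inside the gene, and for 6 genes with several starts the first listed was used. The window of Zfp984 matched those of 6 genes (Zfp980, Zfp987, Zfp981, Zfp988, Zfp985 and Zfp979) at 73.2 to 81.2% of its bases in a global alignment, and these 6 matched one another at 71.2 to 90.8%. Zfp984 had 7 CpGs, against 3 in Zfp981, 5 in Zfp985 and 2 in Zfp979. Zfp980 and Zfp988 had 1 each and Zfp987 had 2. The 3 remaining windows of the run, Zfp982, Zfp933 and Zfp993, had 11, 8 and 4 and matched that of Zfp984 at 56.8, 58.8 and 51.2%, and Zfp982 averaged 2.80 CPM in reprogramming and 8.79 in iPSC. Across all 54 genes the median was 6 CpGs, the same as over all 32851 RefSeq windows, and no methylation was measured in these libraries. The GC box GGGCGG was found on either strand in 70% of the 10 windows from the chromosome 4 run and 60% of the 10 from the chromosome 17 run. It was found in 0% of the 9 from the chromosome 2 run, 31.5% of the 54 and 32.7% of all windows. A match in these letters does not show a bound site.

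**Figure D1:**
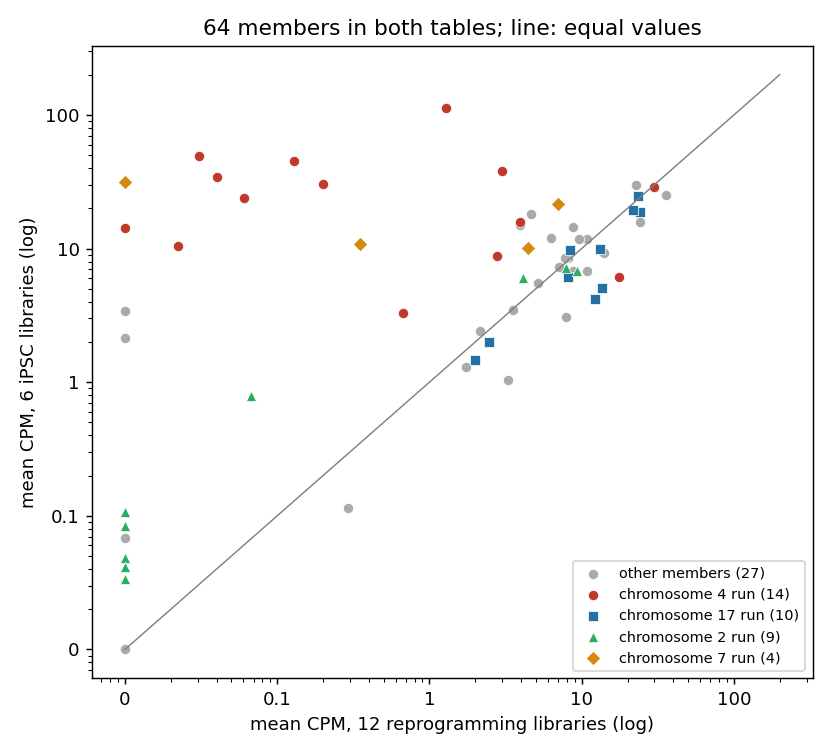
Each point is 1 of the 64 genes, with its mean CPM in the 12 reprogramming libraries on the x axis and in the 6 iPSC libraries on the y axis, both on log scales with 0 drawn at the edge. All 10 genes of the chromosome 17 run lie above 1 in both tables, whereas 8 genes of the chromosome 4 run lie left of 1 CPM in reprogramming and above it in iPSC.

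Genes of the family were detected unevenly. In reprogramming, 44 of the 64 passed the filter for testing (a normalised count of at least 10 in at least 3 libraries), and 43 of these held at least 10 in all 12 libraries; the exception was Zfp993. Another 11 genes had 0 reads in all 12 libraries, which allows up to 0.0169 CPM over the 177948032 reads, for counting error only. These 11 included 5 neighbours on chromosome 2 (Zfp968, Zfp965, Zfp966, Zfp967 and Zfp973), whose promoter windows matched at 83.6 to 100% and which held between 5 and 15 reads each over the 6 iPSC libraries. Such matches were not particular to genes with 0 reads, and other pairs of this run matched at 65.6 to 97.2%. Zfp971 and Zfp970, which averaged 9.32 and 4.11 CPM in reprogramming, matched Zfp965 at 97.2 and 95.2%. Reads from such similar copies can be assigned to the wrong copy or dropped, and the settings for this step were not given, so a low count does not show that these genes were silent. In iPSC 56 genes were tested, among them all 44 tested in reprogramming, and 1 gene, Zfp935, had 0 reads.

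Most genes of the chromosome 4 run were higher in iPSC than during reprogramming, and all of them had reads in iPSC. Levels from the 2 tables are set side by side without a test, because the tables were made and normalised separately. Zfp987 had 0 reads in all 12 reprogramming libraries and 14.4, 17.6 and 10.3 CPM in the DMSO iPSC, with 15.2, 17.2 and 11.2 in the UNC iPSC. Zfp981 held 5 reads in all over the 12 libraries and 40.4 to 55.5 CPM in the 6 iPSC libraries, and Zfp985 held 8 reads and 21.96 to 45.1. Zfp979 lay between 0.706 and 1.79 CPM in reprogramming and between 71.1 and 148 in iPSC. No reprogramming library reached the lowest iPSC library for any of these 4 genes. Zfp984 and its next neighbour Zfp933 went another way. Zfp984 lay at 20.0 to 39.0 CPM in reprogramming and 20.8 to 33.3 in iPSC, ranges that overlapped, and Zfp933 at 14.2 to 21.5 and 4.63 to 7.34.

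Of the 14 genes in the run, 8 averaged under 1 CPM in reprogramming and over 1 in iPSC, and none did the reverse. The 8 were 57.1% of the run's genes above 1 in iPSC. The same share was 9.76% for the other members of the family, 3.58% for the 310 genes named Zfp1 to Zfp899 and 16.1% for all genes in both tables. The 4 other members were Zfp936 and Zfp977 in the chromosome 7 run, and Zfp986 and Zfp989, which had no RefSeq position here. Zfp936 had 0 reads in all 12 reprogramming libraries and 16.8 to 36.7 CPM in the 6 iPSC libraries. The pattern extended to zinc finger genes of the same interval with other names. Zfp600 and Rex2 had 0 reads in all 12 reprogramming libraries and means of 10.9 and 11.7 CPM in iPSC, and Zfp534 had means of 0.0408 and 48.0. Gm13212, the other protein-coding neighbour measured, had means of 3.45 and 8.03.

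**Figure D2:**
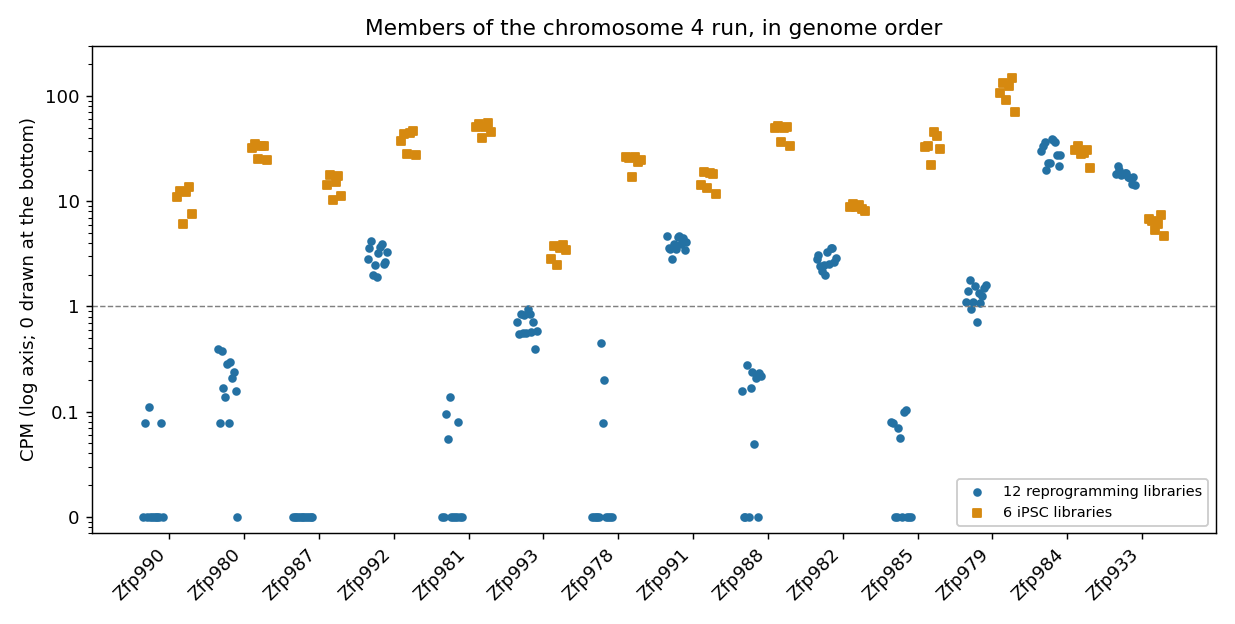
CPM on a log axis are drawn for each of the 14 genes of the chromosome 4 run in genome order, with circles for the 12 reprogramming libraries and squares for the 6 iPSC libraries; values of 0 sit at the bottom. Only Zfp984 has overlapping ranges, only Zfp933 is lower in iPSC, and the other 12 genes are higher in every iPSC library than in any reprogramming library.

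Markers of the labelled cell types differed between the tables. Summed CPM of 12 pluripotency markers were 229 to 433 in reprogramming, with Dppa4 and Dppa5a at 0 in all 12 libraries, and 6078 to 6693 in iPSC. Reads of Pou5f1 and Sox2 in this list may include some from the cassette, which were not told apart. The 12 fibroblast markers summed to 8312 to 15656 in reprogramming and still to 1830 to 3163 in iPSC, with none at 0. In bulk samples, fewer cells of a type and less RNA per cell cannot be told apart.

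With UNC, 1 of the 44 tested genes was called (adjusted p below 0.05), and it was the same gene with and without 3C. Zfp984, at chr4:147753974-147812229, had normalised counts of 468, 519 and 574 in DOX and 308, 367 and 366 in DOX with UNC. It had 589.6, 569 and 551 in DOX with 3C and 407, 337 and 424 in DOX with 3C and UNC. All 6 UNC libraries lay below all 6 libraries without UNC. On the log2(normalised count + 1) scale Zfp984 fell by 0.58 ± 0.10 (SE, n = 3 against 3) without 3C, with an adjusted p of 0.00909 (limma, Benjamini-Hochberg over 16138 genes). With 3C it fell by 0.56 ± 0.10, with an adjusted p of 0.00124. The 2 comparisons contrast different libraries, but 1 fit of all 12 libraries gave the spread for both, so their p-values are not independent. The difference between them was 0.03 ± 0.14 on the log2 scale (adjusted p = 0.966, limma).

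Over all genes tested, 0.607% were called with UNC without 3C and 11.6% with UNC with 3C. These backgrounds moved with single libraries. Without 3C the 98 genes called became 19, 34, 25 and 48 without the DOX with UNC library numbered 3 or 2 or the DOX library numbered 1 or 3, and 409 with the replicate number as a block. With 3C the 1880 became 1034 without the DOX with 3C library numbered 2, 1135 without the DOX with 3C and UNC library numbered 3, and 2871 with the block. By direction, 0.0991% were lower and 0.508% higher without 3C, and 3.94% and 7.71% with 3C. None of the 44 genes was called higher in either comparison. Without the DOX library numbered 3, the call of Zfp984 without 3C was lost (adjusted p = 0.0525, limma). With the replicate number as a block, Zfp942 of the chromosome 17 run was also called lower with 3C (adjusted p = 0.0329, limma). Its normalised counts were 391, 359.9 and 309.6 in DOX with 3C and 301, 319 and 267 with UNC added, ranges that overlapped, and without the block its log2 difference was -0.26 ± 0.10 (adjusted p = 0.106).

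The 6 other tested members of the chromosome 4 run were not called with UNC. Zfp979 differed by -0.22 ± 0.30 without 3C and 0.50 ± 0.30 with 3C on the log2 scale, and Zfp933 by -0.10 ± 0.10 and -0.17 ± 0.10. Of 7 tested genes of the interval with other names, 0 were called with UNC without 3C and 2 with 3C, both lower. These were the protein-coding Gm13212 (-0.59 ± 0.18, adjusted p = 0.0390, limma) and the pseudogene Znf41-ps (-0.99 ± 0.28, adjusted p = 0.0288, limma). Without 3C they differed by -0.59 ± 0.18 and -0.45 ± 0.28 (adjusted p = 0.181 and 0.679, limma). Next by p-value without 3C came Zfp960 on chromosome 17, with 74.8, 79.3 and 87.9 normalised counts in DOX and 47.0, 59.2 and 56.2 with UNC, and Zfp992 of the chromosome 4 run, with 44.1, 55.2 and 64.4 against 30.7, 39.5 and 30.3. Their groups did not overlap, but their log2 differences of -0.57 ± 0.16 and -0.68 ± 0.20 did not pass the test (adjusted p = 0.149 and 0.157, limma). No interaction between UNC and 3C was called in any of the 44 genes, against 0.062% of all genes. The count was also 0 in edgeR and DESeq2, and 1 gene, Zfp938, had an unadjusted p below 0.05. Zfp938 differed by 0.16 ± 0.12 with UNC without 3C and by -0.24 ± 0.12 with 3C, and the interaction of -0.40 ± 0.17 had an adjusted p of 0.388 (limma).

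Most of the tested genes lay slightly below 0 with UNC without passing the test. The median log2 difference of the 44 was -0.13 without 3C and -0.11 with 3C, beside 0.00 over all genes in both, and 35 and 28 of the 44 were below 0. The 275 tested genes of Zfp1 to Zfp899 had medians of -0.05 in both. In 11 of the 44 without 3C, and 8 with 3C, every UNC library was below every library without UNC, beside 6.69% and 12.7% of all genes. Every UNC library was higher in 1 and 0 of the 44, beside 8.47% and 16.1%. Summed over the chromosome 4 run, CPM were 61.2 to 69.8 in DOX, 46.8 to 52.7 with UNC, 67.0 to 70.7 with 3C and 49.9 to 55.1 with both. Without Zfp984 the sums were 31.0 to 33.9, 26.8 to 29.4, 30.2 to 31.7 and 26.8 to 28.2. The groups with and without UNC did not overlap in either sum. This was not particular to the run. The chromosome 17 run, with no gene called, summed to 140.2 to 146.8 in DOX, 126.7 to 135.3 with UNC, 123.04 to 132.9 with 3C and 112 to 122.9 with both. The sums of Zfp1 to Zfp899 did not overlap either, at 8880 to 8935, 8439 to 8596, 8791 to 8975 and 8153 to 8629. The 7 genes of the run that were too low for the test summed to between 0.218 and 0.959 CPM in all 12 libraries, and their ranges overlapped between groups with and without UNC.

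**Figure D3:**
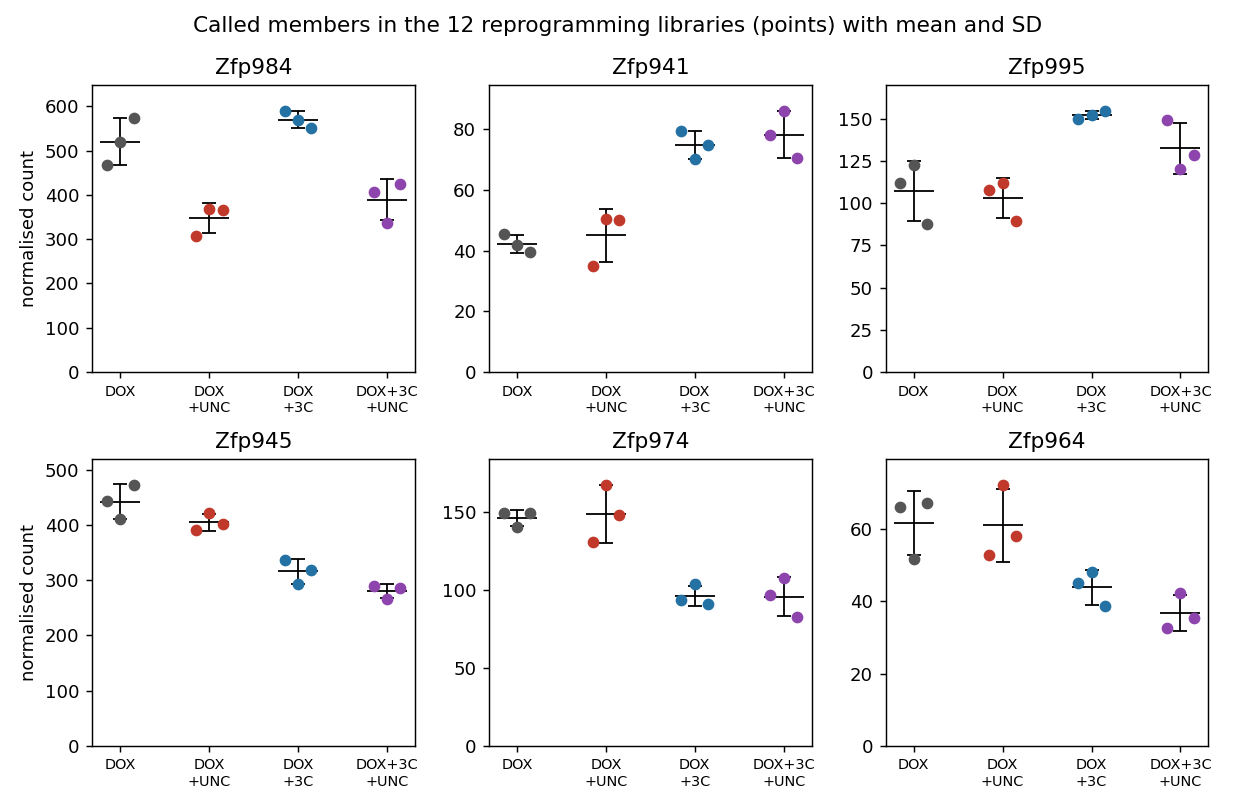
Normalised counts of 6 genes in the 12 reprogramming libraries, 1 point per library in the 4 groups, with the mean and SD (n = 3) in black; axes start at 0. Zfp984 is lower in all 6 libraries with UNC, Zfp941 and Zfp995 are higher with 3C, and Zfp945, Zfp974 and Zfp964 are lower with 3C.

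Markers of other cells moved with UNC too. In the presence of 3C, 10 of 12 fibroblast markers and all 6 smooth muscle markers rose with UNC (limma, adjusted p below 0.05), and without 3C 0 and 3 did. Of 4 tested pluripotency markers, 2 fell with UNC in the presence of 3C and 0 without, with sums over the list of 327.9 to 340.3 CPM with 3C and 229 to 258 with both. Of 4 tested neural markers 1 rose without 3C, with sums of 185 to 199 in DOX and 244 to 279 with UNC. The summed fibroblast markers ranged over 12900 to 13916 CPM in DOX, 14898 to 15656 with UNC, 8312 to 9164 with 3C and 11160 to 11934 with both. Their part in the values of the Zfp genes was not tested.

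3C was followed by far more calls than UNC, in about the share seen for all genes or below it, and mostly downward. Without UNC, 16 of the 44 genes were called, 3 higher and 13 lower, where 49.4% of all genes were called, 24.7% in each direction. With UNC, 13 were called, 3 higher and 10 lower, where 47.4% of all genes were called, 23.9% higher and 23.5% lower. The share of the 44 called lower, 29.5% and 22.7%, lay near that of all genes, and the share called higher, 6.82% in both, lay below it. The median log2 difference of the 44 was -0.13 and -0.12, beside 0.02 and 0.01 over all genes. The 275 tested genes of Zfp1 to Zfp899 had medians of -0.08 and -0.07. Of these 275, 39 were called higher and 66 lower without UNC, and 29 and 59 with UNC. The downward lean was thus not particular to the family described here. The 2 comparisons share no libraries. Among the 44 they had 2 higher genes in common (66.7% of each list) and 7 lower genes (53.8% of the 13 and 70% of the 10).

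Markers of other cells moved with 3C as well. Smooth muscle markers summed to 2380 to 2761 CPM in DOX and 358 to 438 with 3C, and 5 of 6 fell without UNC. In the same comparison 5 of 12 fibroblast markers fell and 1 rose, 3 of 4 tested pluripotency markers fell and 1 rose, 3 of 4 neural markers and both tested endothelial markers fell, and 3 of 5 epithelial markers rose and 1 fell (limma). Erythroid markers summed to 137 CPM in 1 DOX with 3C library, numbered 1, and to 8.66 to 11.9 in the other 2. Their part in the values of the Zfp genes was not tested.

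Zfp941, on chromosome 7, rose most in both. Its normalised counts were 45.4, 42.0 and 39.5 in DOX, 35.0, 50.4 and 50.0 with UNC, 79.5, 70.4 and 74.9 with 3C, and 78.0, 86.1 and 70.7 with both. Its 6 libraries with 3C lay above its 6 libraries without, and the log2 change was 0.81 ± 0.17 without UNC and 0.80 ± 0.17 with UNC (adjusted p = 0.000784 and 0.000946, limma). Zfp995, in the chromosome 17 run, rose by 0.51 ± 0.14 and 0.36 ± 0.14 (adjusted p = 0.00552 and 0.0413). Its counts were 112, 122 and 87.9 in DOX and 149, 152 and 154 with 3C. Zfp954 rose without UNC (0.29 ± 0.11, adjusted p = 0.0336) and Zfp961 with UNC (0.21 ± 0.08, adjusted p = 0.0386), and neither passed in the other comparison (0.17 ± 0.11 and 0.15 ± 0.08).

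Zfp945, at the end of the chromosome 17 run, fell with the smallest p-values. It had 444, 411 and 473 normalised counts in DOX, 391, 422 and 403 with UNC, 337, 293 and 319 with 3C, and 290.1, 265 and 286 with both. The log2 change was -0.48 ± 0.08 without UNC and -0.53 ± 0.08 with UNC (adjusted p = 8.17e-05 and 3.37e-05, limma). Zfp974, a single gene on chromosome 7, had 149.6, 141 and 149 in DOX and 93.7, 104 and 91.1 with 3C, and fell by 0.60 ± 0.13 and 0.63 ± 0.13. Zfp964 on chromosome 8 fell by 0.48 ± 0.19 without UNC (adjusted p = 0.0440, limma) and by 0.71 ± 0.19 with UNC (adjusted p = 0.00447, limma). In all 3 genes every library with 3C lay below every library without it within each comparison.

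Calls with 3C are given by run, for few genes each. Over all genes, 49.4% were called without UNC and 47.4% with UNC, with 24.7% and 23.5% lower. On chromosome 17, all 10 genes of the run were tested, and 5 fell without UNC (Zfp948, Zfp983, Zfp944, Zfp946 and Zfp945) while Zfp995 rose. Zfp983 had 38.0, 44.4 and 35.1 in DOX and 20.2, 25.2 and 27.8 with 3C, and fell by 0.67 ± 0.24 (adjusted p = 0.0259, limma). With UNC, 2 of the 10 fell and Zfp995 rose. On chromosome 2, Zfp971 and Zfp931 fell in both comparisons, out of 3 tested genes in the run; Zfp971 fell by 0.38 ± 0.14 and 0.50 ± 0.14, and Zfp931 by 0.43 ± 0.15 and 0.44 ± 0.15. The third, Zfp970, had log2 differences of -0.42 ± 0.18 and -0.19 ± 0.18 and was not called. Of the 7 tested genes of the chromosome 4 run, none was called without UNC, and with UNC only Zfp933 was (-0.30 ± 0.10, adjusted p = 0.0177, limma). With the replicate block Zfp933 was also called without UNC (-0.23, adjusted p = 0.0441, limma). Zfp984 differed by 0.14 ± 0.10 and 0.16 ± 0.10 with 3C and did not pass (adjusted p = 0.270 and 0.187). Of the 2 tested genes of the chromosome 7 run, none was called without UNC, and with UNC only Zfp976 fell (-0.39 ± 0.16, adjusted p = 0.0487, limma). Whether the runs differ from one another was not tested.

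Several calls rested on libraries that spread widely. Zfp934 on chromosome 13 had 85.4, 78.9 and 86.6 normalised counts with UNC and 69.9, 32.7 and 65.2 with 3C and UNC (-0.64 ± 0.22, adjusted p = 0.0202, limma), where 1 library lay far below the others. Zfp959 on chromosome 17 was called without UNC (-0.44 ± 0.16, adjusted p = 0.0258) although its groups overlapped, with 141, 101 and 130.3 in DOX and 74.7, 106 and 93.4 with 3C. Zfp931 was called with UNC although its groups overlapped too. In Zfp960, which fell with 3C without UNC (-0.48 ± 0.16, adjusted p = 0.0206, limma), the groups did not overlap. It had 74.8, 79.3 and 87.9 in DOX and 58.1, 51.1 and 64.1 with 3C. The set called without UNC falls to 10 genes, 2 higher and 8 lower, when the DOX library numbered 3 is left out. The set called with UNC falls to 8 when either library numbered 3 of that comparison is left out.

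**Figure D4:**
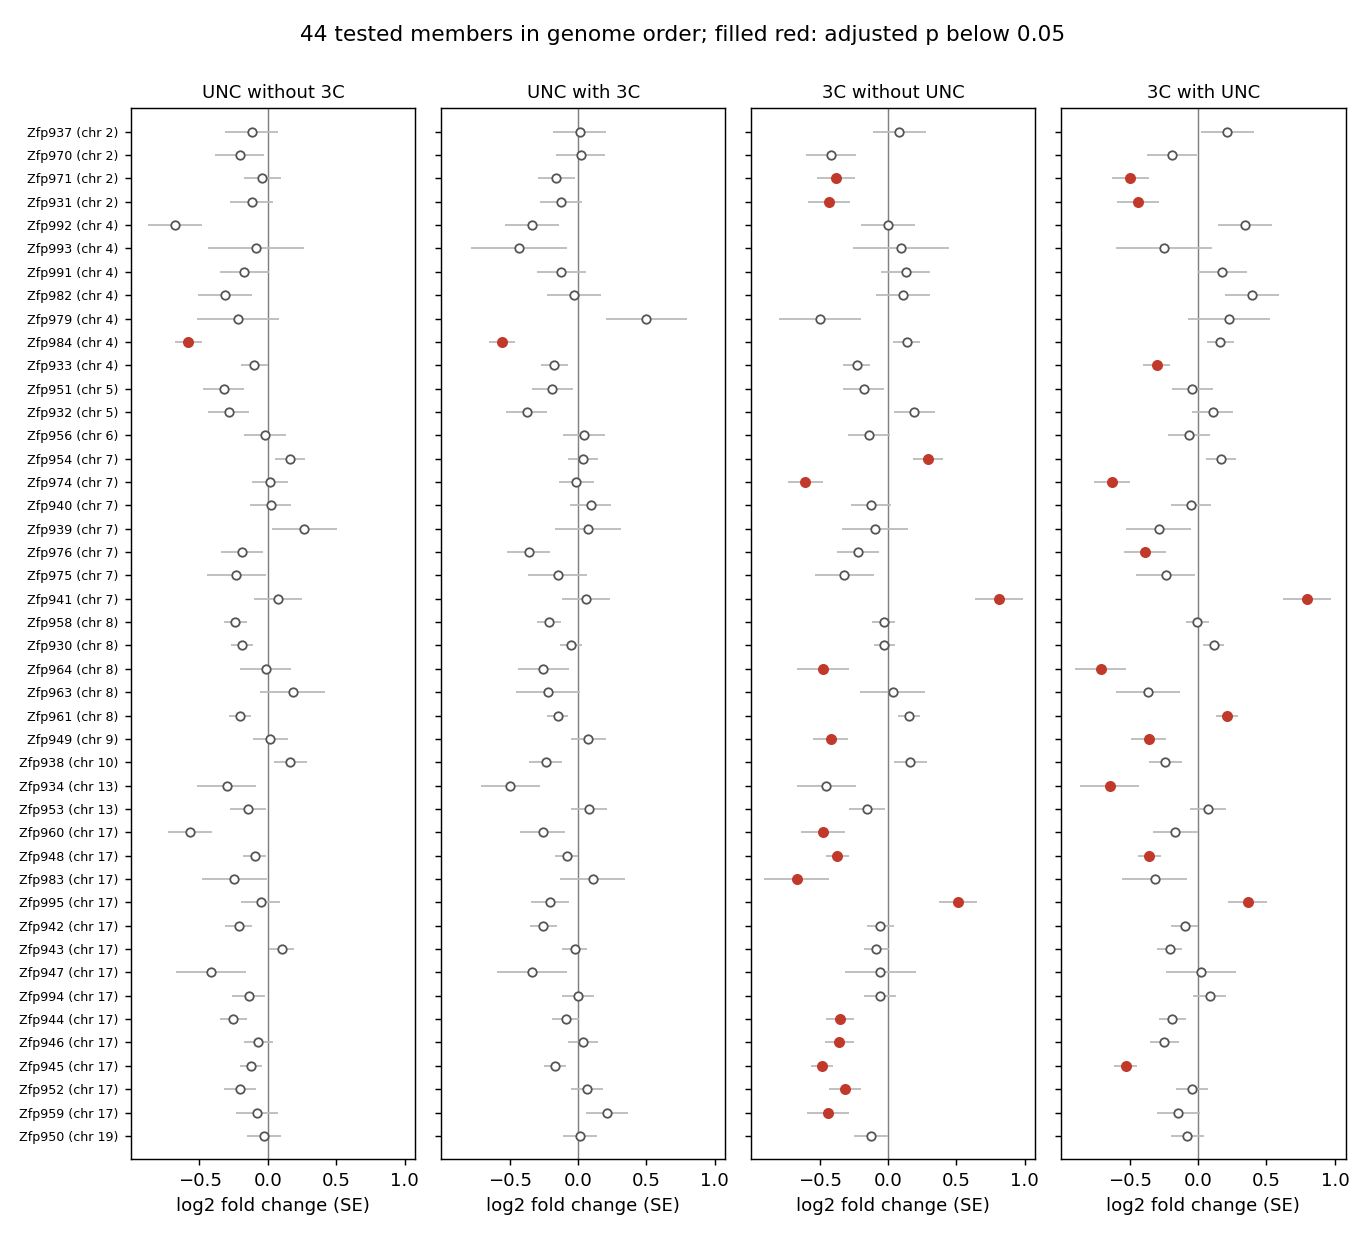
Log2 fold changes with SE of the 44 tested genes, in order of chromosome and position, for UNC without and with 3C and for 3C without and with UNC; filled red points have an adjusted p below 0.05 (limma) and open points do not. Zfp984 is the single red point in both UNC panels, and most of the 16 and 13 red points in the 3C panels lie left of 0.

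Genes of the KRAB corepressor and of H3K9 silencing more broadly were called more often with 3C than with UNC, as genes in general were. Of 35 genes of the corepressor and H3K9 silencing machinery, 1 fell with UNC without 3C (Lrif1, which binds HP1, -0.53 ± 0.11, adjusted p = 0.0269, limma). With 3C, 4 fell with UNC: Dnmt1, the maintenance DNA methyltransferase, its partner Uhrf1, the silencing ATPase gene Morc2a and the H3K9 methyltransferase gene Suv39h2, by 0.20 to 0.26 on the log2 scale. The share called lower with UNC was 2.86% without 3C and 11.4% with 3C, beside 0.0991% and 3.94% of all genes. Without 3C, the log2 differences with UNC were -0.02 ± 0.05 for Trim28, -0.10 ± 0.06 for Setdb1, 0.02 ± 0.05 for Ehmt1 and -0.00 ± 0.05 for Ehmt2, the latter 2 encoding the targets of UNC0638, and none was called. In the presence of 3C they were -0.09 ± 0.05, -0.15 ± 0.06, -0.11 ± 0.05 and -0.06 ± 0.05, and again none was called. Between groups with and without 3C, Setdb1 rose without UNC (0.16 ± 0.06, adjusted p = 0.0212, limma). Ehmt1 fell with UNC (-0.14 ± 0.05, adjusted p = 0.0353, limma), and Trim28 and Ehmt2 were called in neither. With 3C, 8 of the 35 rose and 12 fell without UNC, and 4 rose and 15 fell with UNC. The share that fell with 3C was 34.3% without UNC and 42.9% with UNC, beside 24.7% and 23.5% of all genes, and the share that rose was 22.9% and 11.4%, beside 24.7% and 23.9%. Among 13 zinc finger genes with known targets, of which 8 were tested, none was called with UNC without 3C and 1, Zfp568, fell with UNC with 3C. This list includes Zfp932, Zfp936, Zfp961, Zfp989 and Zfp992 of the family described here, so it is not a separate set. In this list 1 gene rose and 1 fell with 3C without UNC, and 3 rose, among them Zfp961, and 2 fell with UNC. Zfp57, which protects imprints, fell without UNC by 1.33 ± 0.12 and Zfp809, which silences murine leukaemia proviruses, rose by 0.87 ± 0.09. Zfp932, which represses endogenous retroviruses, was not called with UNC (-0.29 ± 0.15 without and -0.37 ± 0.15 with 3C).

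By Pearson correlation of log2 values over the 12 reprogramming libraries, the genes most like Zfp984 were Gm37233 (0.93), Tacc2 (0.89), Cryz (0.88), Nkapd1 (0.87) and Gm9134 (0.87). These values share the libraries and the 4 groups, and were picked as the highest of all tested genes. Of these 5, Cryz, which encodes a quinone reductase, was called lower with UNC in both comparisons (-0.34 and -0.29), and Gm37233 and Tacc2 with 3C.

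In iPSC, none of the 56 tested genes was called between cells from UNC and from DMSO reprogramming, by edgeR's quasi-likelihood test over 17987 genes, 1.31% of which were called. DESeq2 called 0 as well, and 7 had an unadjusted p below 0.05. The 3 with the smallest p-values were Zfp937 (-0.58 ± 0.20, adjusted p = 0.266), Zfp956 (-0.32 ± 0.12, adjusted p = 0.303) and Zfp985 of the chromosome 4 run (0.42 ± 0.16, adjusted p = 0.333). Zfp985 had 785, 858 and 527 reads in DMSO and 1110, 1028 and 679 in UNC iPSC. With no filter on low counts Zfp985 (0.42, adjusted p = 7.61e-05, edgeR) and Zfp936 (0.37, adjusted p = 0.00161, edgeR) were called higher with UNC. With the replicate number as a block, Zfp985 was called higher too (0.43, adjusted p = 0.00912, edgeR), although the labels do not pair these libraries. Zfp984, the gene that was lower with UNC during reprogramming, had 737, 845 and 669 reads in DMSO and 709, 763 and 450 in UNC iPSC, ranges that overlapped, with a log2 difference of -0.18 ± 0.13 (adjusted p = 0.610, edgeR). Fibroblast markers were higher in the UNC iPSC (8 of 11 tested rose, edgeR), with sums of 3054 to 3163 against 1830 to 2224 CPM, and their part in these values was not tested.

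The larger difference in iPSC was between libraries of the same group. The chromosome 4 run summed to 426, 481 and 334 CPM in the DMSO libraries numbered 1, 2 and 3, and to 468, 499.5 and 325 in the UNC libraries. All 14 genes were lowest of their group in the DMSO library numbered 3 and 13 of 14 in the UNC library numbered 3, the exception being Zfp978. The median level there was 0.753 and 0.697 of the mean of the other 2 libraries. For the 42 tested members elsewhere these ratios were 0.963 and 0.928, with 20 and 24 lowest, and over all genes tested 37.3% and 36.3% were lowest. The drop was not particular to the chromosome 4 run. The chromosome 7 run summed to 77.6, 76.2 and 56.8 CPM in DMSO and 80.6, 78.0 and 73.7 in UNC. The chromosome 17 run was highest in the DMSO library numbered 3 (110.7) and lowest in the UNC library numbered 3 (89.8). The chromosome 2 run was lowest in neither. Zfp979 had 108, 134 and 91.2 CPM in DMSO and 124, 148 and 71.1 in UNC. The libraries numbered 3 also stood apart over all genes, with a chi-square per degree of freedom of 7.11 to 10.0 against their partners and 2.97 to 2.98 between libraries 1 and 2. Pluripotency markers summed to 6601 and 6078 there and to 6415 to 6693 in the other 4, and their part was not tested. Leaving out both of these libraries, an alternative chosen after seeing the data, gave 1 call, Zfp985 (0.39, adjusted p = 0.000457, edgeR).

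**Figure D5:**
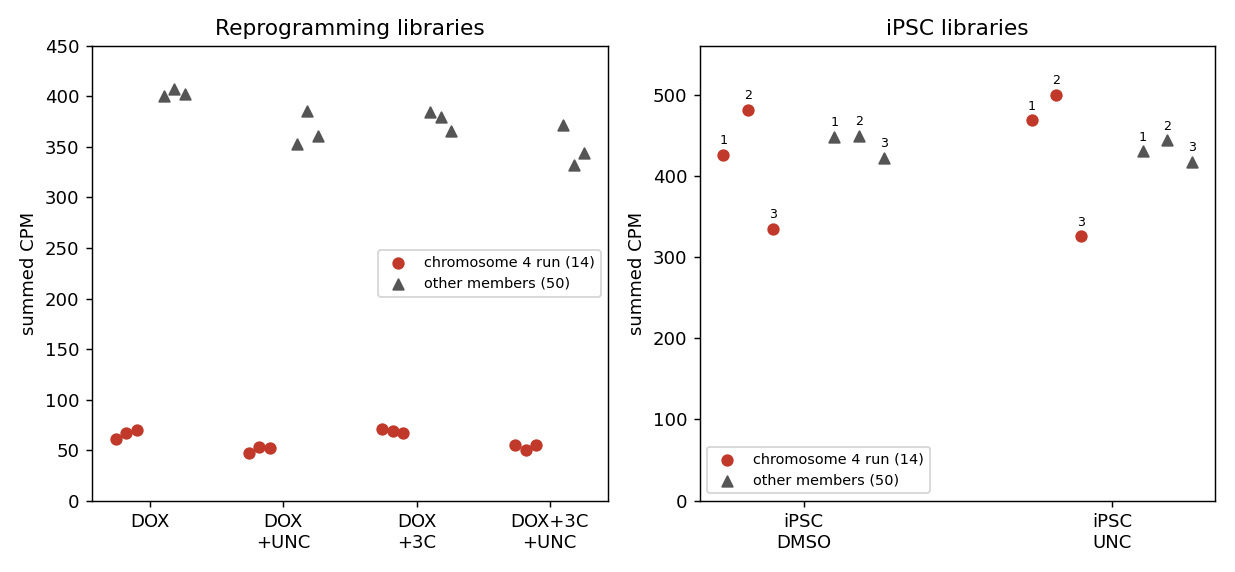
Summed CPM of the 14 genes of the chromosome 4 run (circles) and of the other 50 members (triangles), 1 point per library, for the 4 reprogramming groups (left) and the 2 iPSC groups (right, numbered by replicate). The circles are lower with UNC than without during reprogramming, and lowest in both iPSC libraries numbered 3, at 334 and 325.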

How the data were processed

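RNA was sequenced in 18 libraries, of 10616764 to 20211641 reads in genes for reprogramming and 21592023 to 25408585 for iPSC, and this depth limits low genes. The submitters' processing notes name mm10, DESeq, HTSeq 0.5.4p3, TopHat2 2.1.0 and SAMtools 1.8; whether reads were counted by strand, and how multiply mapped reads were treated, was not given in the sources used here. The reprogramming table held signal: the authors deposited read counts divided by 1 factor per library, and 2 of its columns, which fit no sample listed, were left out. Whole reads were recovered from its steps (100% of values within 0.01 read) for CPM (reads per 1000000 reads of a library) and count tests. The iPSC table held counts as deposited by the authors; the DMSO titles and descriptions number the replicates differently, and the title numbers are used. The 10 H3K9me2 samples of 28 were not analysed here.

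Reprogramming values were tested as log2(value + 1) with limma 3.58.1 (trend; all 12 libraries in 1 fit; filter: 10 or more in 3 or more libraries) and iPSC counts with edgeR 4.0.16 (TMM, filterByExpr), with Benjamini-Hochberg adjustment over all genes tested and calls at 0.05. Alternatives were DESeq2 1.42.0, edgeR on recovered reads (94, 2081, 8049, 7765 and 17 genes called for UNC without and with 3C, 3C without and with UNC, and interaction), other scaling, a pseudocount of 5, no filter, only the groups compared, a replicate block and leaving out each library. Simulated data had the real means but 1 assumed spread beyond counting error for all genes, not that of these libraries. There the fits recovered 54% and 66% of genes changed 1.5-fold in UNC without 3C (16138 genes) and iPSC (17987 genes). Of genes changed 3-fold, 99% and 99.5% were recovered. Among the genes called there, 6.09% and 8.97% at 1.5-fold and 7.04% and 3.40% at 3-fold were unchanged ones. These rates do not give the power of the real tests. The same replicate numbers correlated above 0.1 in every pair of UNC with 3C (0.110 to 0.192), 3C without UNC (0.106 to 0.156) and 3C with UNC (0.155 to 0.205), which pairs them by the data and not by the labels. No replicate pair agreed within counting error (chi-square per degree of freedom 2.93 to 10.0).

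Named with values are the genes called in a comparison (with more than 12 calls, the 6 largest changes each way), their neighbours in a run, and the 3 smallest p-values where none was called. The family and lists were chosen with earlier results of these data known. Zfp955a and Zfp955b are not covered by the symbol rule. Symbols, positions and promoters came from RefSeq (GRCm38.p6). Identity counts matching bases in a global alignment, per 250 bases. CPM are not per length, since transcript lengths were not used here, so levels are set side by side between tables or groups for the same gene; sets by KRAB box or finger number were not made.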

Additional observations from a re-analysis of the deposited data

How the results depend on the processing

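No call reversed its direction. For UNC without 3C, 1 gene was called in 18 of 19 alternatives and 0 without the DOX library numbered 3 (range 0 to 1 over left-out libraries). For UNC with 3C the count was 1, and 2 with the replicate block and without the DOX with 3C library numbered 3 (range 1 to 2). For 3C without UNC it was 16, and ranged from 10 to 18 over left-out libraries, with 11 in DESeq2. For 3C with UNC it was 13, and ranged from 8 to 13, with 10 in DESeq2. For the interaction it was 0 in all 18 alternatives. In iPSC it was 0, but 2 with no filter (Zfp936 and Zfp985), 1 with the replicate block (Zfp985, adjusted p = 0.00912, edgeR) and 1 without both libraries numbered 3; it was 0 when any single library was left out. The causes were not tested. The main fits used no block. In UNC without 3C the same replicate numbers correlated at 0.223, 0.211 and 0.0940, and different numbers at -0.194 to -0.0131. The labels do not pair these libraries, and 1 of the 3 same-number values was not above 0.1. With the block Zfp984 stayed called there (adjusted p = 0.000545, limma). In iPSC the same numbers correlated at 0.0718 to 0.157 and different numbers at -0.196 to 0.131. The block changed no other count of these genes by over 1.5 times. Over all genes the block moved the calls from 98 to 409 for UNC without 3C, 1880 to 2871 for UNC with 3C, 10 to 413 for the interaction and 236 to 407 for iPSC. DESeq2 called 168, 160 and 395 genes for UNC without 3C, the interaction and iPSC, and iPSC without a filter gave 823. Leaving out 1 library gave 0 to 70 for the interaction and 84, 107 and 149 for iPSC without UNC 1, UNC 2 and DMSO 1.

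Zfp941, Zfp974 and Zfp945 kept their calls in all 19 alternatives of both 3C comparisons. Without UNC, calls were lost for Zfp954 in 6 of 19 alternatives (without DOX 1 or 3 or DOX with 3C 1 or 2, and in edgeR and DESeq2; highest adjusted p 0.179), Zfp964 in 7 (without DOX 1 or 3, DOX with 3C 1 or 3 or DOX with UNC 3; 0.152), Zfp983 in 4 (without DOX 2 or DOX with 3C 1; 0.103), Zfp960 in 3 (without DOX 3 or DOX with 3C 2; 0.0926) and Zfp959 in 3 (without DOX 1 or 3 or DOX with 3C 1; 0.139). With UNC, they were lost for Zfp995 in 9 (without 1 or 3 of either group or DOX with 3C 2 or 3; 0.180), Zfp961 in 7 (without 2 or 3 of DOX with 3C and UNC or 1 or 2 of DOX with UNC; 0.137), Zfp931 in 4 (without 2 or 3 of either group; 0.112) and Zfp934 in 3 (without 2 of DOX with 3C and UNC or 1 or 3 of DOX with UNC; 0.135). These p-values are from limma. Similar copies, overlapping gene models (Zfp978 with Zfp991 and Zfp988, Zfp993 with Zfp981) and unknown strand handling limit single genes of the chromosome 4 run.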
